A study of Mus musculus with 40 samples.

Results

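The comparison described here sets the bone marrow of mice 5 days after cyclophosphamide against that of mice 2 days after it. Its members were taken by the sample titles: 5 mice of day 5 and 5 mice of day 2, each hybridised on 2 arrays, which makes 10 of the 20 mice and 20 of the 40 arrays of the series. All mice were of the inbred strain DBA/2. Both groups had received 83 mg/kg cyclophosphamide by intraperitoneal injection, so that the comparison holds the drug constant and varies the time since the dose. The remaining mice were 5 untreated controls and 5 mice of day 1. Both groups enter the shared estimate of spread, and the controls are the level against which days 2 and 5 are set. Values of both groups are also shown in figures and for a set of genes from other tissues. The labels say that the mice of a group were harvested independently. Genes were included when at least 3 mice of each of the 2 days had a value, which was so for 5501 of 13026 genes and unnamed probes (4078 with a gene symbol and 1423 without).

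Cyclophosphamide is a prodrug whose metabolites cross-link DNA. In marrow it kills dividing precursors first, and the marrow then refills from surviving stem and progenitor cells. Granulocytes mature through promyelocytes, which make the primary granules, and myelocytes, which make the secondary granules, before they become segmented neutrophils. Red cell precursors divide and load haemoglobin on a similar schedule, while macrophages of the marrow stroma take up dying cells and recycle their iron. Bulk RNA was measured, so for every gene below fewer cells of a type and less RNA per cell cannot be told apart.

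Each value is the authors' deposited log ratio of a mouse's RNA, labelled with Cy5, over a common reference labelled with Cy3. It is read here as a log2 ratio, since no source used here gives the base. With another base every fold would differ while the calls would not. The labels describe the reference as pooled marrow of untreated mice, whereas its treatment field names cyclophosphamide. The reference cancels in a difference between days, but a single ratio depends on what it was. A ratio holds no level, so the tissue could not be checked from the values. On the array, 8 of 14 secondary granule genes, 12 of 22 erythroid membrane genes and 5 of 16 B cell precursor genes were measured often enough to be tested. Over all features this was so for 5501 of 13026. Genes known from other tissues passed too, so these counts do not identify the tissue.

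Per array 4583 to 7497 of 13443 probes had a value, and arrays of the same mouse had a correlation over probes of 0.683 to 0.954. Such pairs of arrays held 0 identical values. Over the 3450 genes with a value in all 10 mice, principal component 1, with 57.6% of the variance, set all 5 mice of day 2 on 1 side and all 5 of day 5 on the other. Mouse 4 of day 5 stood apart on the second component (11.4% of the variance), at 12.88 against -5.14 to 6.74 for the other 9 mice. It also had the widest spread of values on day 5 (SD over genes 0.446, against 0.239 to 0.353 for the other 4 mice). For the 10 named genes flagged in the closing section for a wide gap between this mouse and its neighbour, the result is given with and without it. In others, such as Alas2, Hmgn1, Dgat2 and Gbp8, it was also the extreme of its day, and only the result with it is given.

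Of the 5501 genes and unnamed probes, 1098 (20%) differed between the days at an adjusted p under 0.05 (limma, Benjamini-Hochberg over all 5501). Of these, 550 (10%) were higher on day 5 and 548 (9.96%) were lower. The difference was at least 2-fold for 118 (2.15%). For 1027 (18.7%) the mice of the 2 days did not overlap, with day 5 higher for 530 (9.63%) and lower for 497 (9.03%). The median difference over all of them was 0.03 on the log2 scale. Against untreated mice, fitted in the same model, 1012 of 5409 (18.7%) differed on day 2 and 135 of 5409 (2.5%) on day 5. These contrasts share mice with the comparison of the 2 days and are not independent of it.

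**Figure D1:**
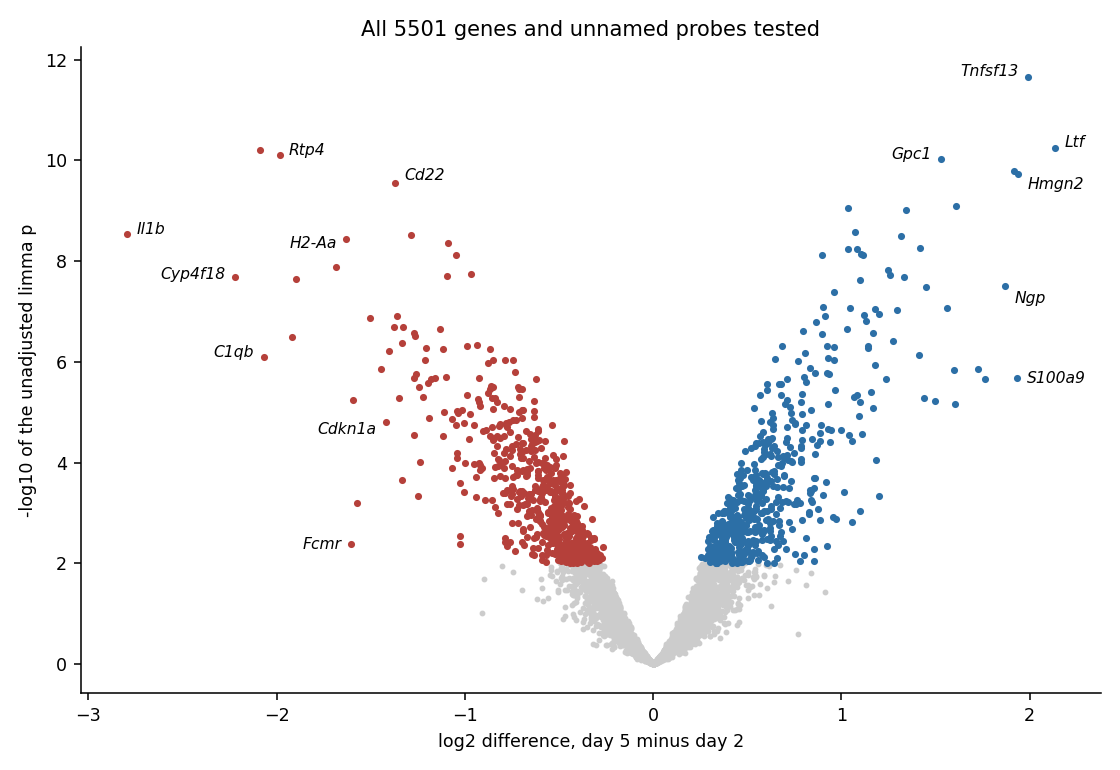
Each point is 1 of the 5501 genes and unnamed probes tested. The x axis is the log2 difference of day 5 minus day 2 and the y axis is -log10 of the unadjusted limma p. Blue points are the 550 called higher on day 5, red points the 548 called lower, and grey points were not called. Ltf (2.13) lies farthest to the right and Il1b (-2.79) farthest to the left.

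Genes of the neutrophil secondary granule made up the largest rise of any list. All 8 members that could be tested were higher on day 5, with a median difference of 1.67, against 10% of all features called higher and a median of 0.03. Of the 14 list members on the array, 6 had too few values. The counts of every list below are to be read beside 10% of all features called higher and 9.96% called lower. Differences below are log2 day 5 minus day 2 with the standard error of the limma model, and mouse values are listed from mouse 1 to mouse 5. Genes named as 1 of the 15 largest rises or falls were picked among called genes without overlap. For them the lack of overlap follows from the choice and adds no support.

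Ltf encodes lactoferrin, the iron-binding protein of the secondary granule, and its log2 ratios were -1.80, -1.65, -1.90, -1.98 and -2.30 on day 2 and 0.31, -0.12, 0.10, 0.66 and 0.08 on day 5. The day 2 mice all lay at least 1.52 below the lowest day 5 mouse, and the difference was 2.13 ± 0.19 (4.38-fold, adjusted p = 1.04e-07). Against untreated mice the day 2 difference was -1.96 (adjusted p = 1.59e-06) and the day 5 difference 0.17 (adjusted p = 0.884). Cd177, a surface protein of neutrophils and their late precursors, stood at -1.49, -1.12, -1.40, -1.35 and -1.94 on day 2 and 0.45, -0.06, 0.28, -0.10 and 0.16 on day 5. The groups did not overlap, with a difference of 1.61 ± 0.16 (adjusted p = 4.80e-07). S100a9, a subunit of calprotectin, the calcium-binding protein that fills the neutrophil cytosol, was measured in fewer mice, at -0.62, -1.47 and -0.89 in the 3 mice with a value on day 2 and 0.70, 0.52, 1.70 and 0.85 in the 4 mice with a value on day 5. Every day 5 mouse with a value exceeded every day 2 mouse, by 1.93 ± 0.29 on average (adjusted p = 1.15e-04). Ngp, the neutrophilic granule protein, differed by 1.87 ± 0.23 (adjusted p = 4.95e-06), and 2 of its day 5 arrays held a value that looks saturated. Anxa1, a calcium-dependent phospholipid-binding protein that is abundant in neutrophils, differed by 1.73 ± 0.27 (adjusted p = 8.62e-05). Its day 5 values were the most uneven of the list, from -0.20 in mouse 3 to 1.79 in mouse 4. The other called members were Chil1 (1.32), Hp (0.89) and Itgb2l (0.58), given to complete the list.

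Of 7 tested genes of primary granules and granulocyte precursors 5 were called higher on day 5 and 0 lower, with a median of 0.65. The median of the list against untreated mice was -0.09 on day 2 and 0.53 on day 5. Prtn3, proteinase 3 of the primary granule, was at 0.34, 0.21, 0.58 and 0.28 in the 4 mice with a value on day 2 and 1.08, 2.34, 1.94, 1.66 and 1.94 on day 5. The lowest day 5 mouse stood 0.49 above the highest day 2 mouse, and the difference was 1.44 ± 0.24 (adjusted p = 2.21e-04). Prtn3 was also above untreated mice on day 5, by 1.35 (adjusted p = 9.94e-04), and on day 2 its difference from them was -0.09 (adjusted p = 0.846). Ap3s1, a subunit of the adaptor complex that sorts proteins to granules, rose by 0.92 ± 0.20 (adjusted p = 0.00341), although mouse 5 of day 5, at 0.11, lay within the day 2 range. Plac8, which is expressed in myeloid precursors, rose by 0.65 ± 0.18 (adjusted p = 0.00968). Nkg7, a granule membrane protein that cytotoxic lymphocytes also make, rose by 0.75 ± 0.15 (adjusted p = 0.0013). Cst7 (0.43) completes the 5. The count was 4 to 6 of 7 when a single mouse was left out.

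Genes of mature neutrophils did not move together: 4 of 12 tested members were higher and 4 lower, with a median of -0.23. Lta4h, the hydrolase that makes leukotriene B4, was at -1.40, -0.69, -0.40, -0.46 and -0.14 on day 2 and 0.54, 0.85, 0.81, 1.44 and 0.32 on day 5. No day 2 mouse reached the lowest day 5 mouse, and the difference was 1.41 ± 0.21 (adjusted p = 5.58e-05). Trem3, a receptor of myeloid cells, rose by 1.09 ± 0.20 (adjusted p = 3.93e-04), as did Fpr2 (0.73), a formyl peptide receptor, and Alox5ap (0.76), the partner protein of 5-lipoxygenase. In the opposite direction, Csf3r, the receptor for granulocyte colony-stimulating factor, changed by -0.85 and Il1rn, the interleukin-1 receptor antagonist, by -0.94. These last 4 genes and those given to complete a list were chosen after their values had been seen.

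The list's lowest member was Il1b, the cytokine interleukin-1 beta, at 0.79, 1.81, 1.45, 0.71 and 0.86 on day 2 and -1.22, -2.33, -1.20, -2.98 and -0.62 on day 5. Its difference of -2.79 ± 0.30 was the largest of all genes tested (6.94-fold lower, adjusted p = 1.18e-06), and the highest day 5 mouse lay 1.33 below the lowest day 2 mouse. The 2 Il1b probes disagreed in size: the probe measured in all 10 mice gave -3.66 and the other, with 4 mice on day 2 and only 2 on day 5, gave -0.37. The Il1b value of a mouse is the mean of its measured probes, so the values above mix mice with 1 and with 2 probes. The size of the difference and the spread between mice depend in part on this. Outside the list, Cyp4f18, a fatty acid hydroxylase of myeloid cells that inactivates leukotriene B4, was at -0.30, 0.12, 0.65, -0.48 and 0.05 on day 2 and -2.05, -2.83, -2.92, -1.75 and -1.50 on day 5. Its mice did not overlap, and it fell by 4.67-fold (-2.22 ± 0.27, adjusted p = 3.59e-06). On day 2 it did not pass against untreated mice, at -0.10 (adjusted p = 0.844), whereas its day 5 difference was -2.32 (adjusted p = 8.22e-06). Ccl6, a chemokine of myeloid cells and a member of the list, was measured in 3 mice of each day and fell by 2.04-fold (-1.02 ± 0.30, adjusted p = 0.02). That call was lost when the 10 mice were fitted alone (adjusted p = 0.0698).

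Of 8 tested monocyte genes 5 were called higher on day 5 and 0 lower, with a median of 0.74. F13a1, the A chain of coagulation factor XIII and a marker of classical monocytes, was at -0.39, -0.16, -0.57, -0.37 and -0.39 on day 2 and 0.56, 0.63, 0.90, 0.58 and 0.62 on day 5. Values within a day were tight (SD 0.14 on each), and the difference was 1.03 ± 0.11 (adjusted p = 4.80e-07). Against untreated mice, day 2 differed by -0.19 (adjusted p = 0.218) and day 5 was higher by 0.84 (adjusted p = 2.50e-05). Ms4a6c, a membrane protein of monocytes, was at 0.24, 0.31, 0.30, 0.30 and 0.19 on day 2 and 0.99, 1.14, 1.44, 1.14 and 0.93 on day 5. The 2 days were again apart, by 0.86 ± 0.13 (adjusted p = 1.02e-04). Lyz2, lysozyme of granulocytes and monocytes, differed by 1.10 ± 0.28 (adjusted p = 0.00872), and Cybb, the catalytic subunit of the phagocyte oxidase, by 1.02 ± 0.24 (adjusted p = 0.00468). Ms4a6b (0.62) was the remaining call. With values required in all 10 mice the list shrank to 4 members, of which 3 were called.

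Resident macrophage and complement genes went the other way. All 7 tested members were called lower on day 5, against 9.96% of all features. All 7 also separated the days without overlap, against 9.03% of all features with day 5 lower. Their median was -1.29. Of the 22 list members on the array only these 7 had enough values to be tested. C1qb, a chain of complement component C1q, was at 2.30, 1.68, 1.89, 0.70 and -0.04 on day 2 and -0.94, -0.98, -0.91, -0.85 and -0.14 on day 5. Mice 1 to 3 of day 2 were far above day 5, while mouse 5 of day 2 was only 0.10 above mouse 5 of day 5, the highest of its group. The difference was -2.07 ± 0.31 (4.2-fold lower, adjusted p = 6.00e-05). C1qa, a second chain of the same molecule, was at 1.74, 2.00, 1.39, 1.24 and 0.13 on day 2 and -0.76, -0.77, -0.81 and -0.13 in the 4 mice with a value on day 5. Mouse 5 was again the lowest of day 2 and the highest of day 5, with a difference of -1.92 ± 0.25 (adjusted p = 3.02e-05). Siglec1, sialoadhesin of the macrophages at the centre of erythroblastic islands, was even within groups, at 0.97, 1.60, 0.78, 1.12 and 1.28 on day 2 and -0.14, 0.06, -0.15, -0.40 and -0.06 on day 5. It fell by 2.44-fold (-1.29 ± 0.14, adjusted p = 1.18e-06), and its day 2 difference from untreated mice of 1.19 (adjusted p = 8.85e-06) compared with -0.10 (adjusted p = 0.922) on day 5. Slc40a1, ferroportin, which exports iron from macrophages, fell by 2.57-fold (-1.36 ± 0.18, adjusted p = 1.49e-05). Adgre1 (-1.09), which encodes the macrophage marker F4/80, Fcna (-1.07), a ficolin, and Serping1 (-1.05), the C1 inhibitor, complete the 7. Leaving out any 1 mouse kept all 7 calls.

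Of 12 tested genes of dendritic cells and antigen presentation, 3 were lower and 0 higher, with a median of -0.09. H2-Aa, the alpha chain of the class II molecule I-A, was at 0.19, 0.45, 0.35, 0.28 and 0.41 on day 2 and -1.22, -1.29, -1.47, -1.87 and -0.64 on day 5. The day 2 mice lay within 0.26 of each other and the highest day 5 mouse was 0.83 below them, a difference of -1.63 ± 0.18 (adjusted p = 1.22e-06). H2-D1, a class I heavy chain, fell by 1.53-fold (-0.62 ± 0.18, adjusted p = 0.0186), a call that was lost without mouse 1 of day 5. Ccr9, a chemokine receptor of plasmacytoid dendritic cells and lymphocytes, fell by 1.82-fold (-0.87 ± 0.13, adjusted p = 4.41e-05), and its mouse-to-mouse pattern is set beside that of genes from other tissues further on. The remaining 9 members, among them Ciita (-0.07), the regulator of class II transcription, were not called.

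**Figure D2:**
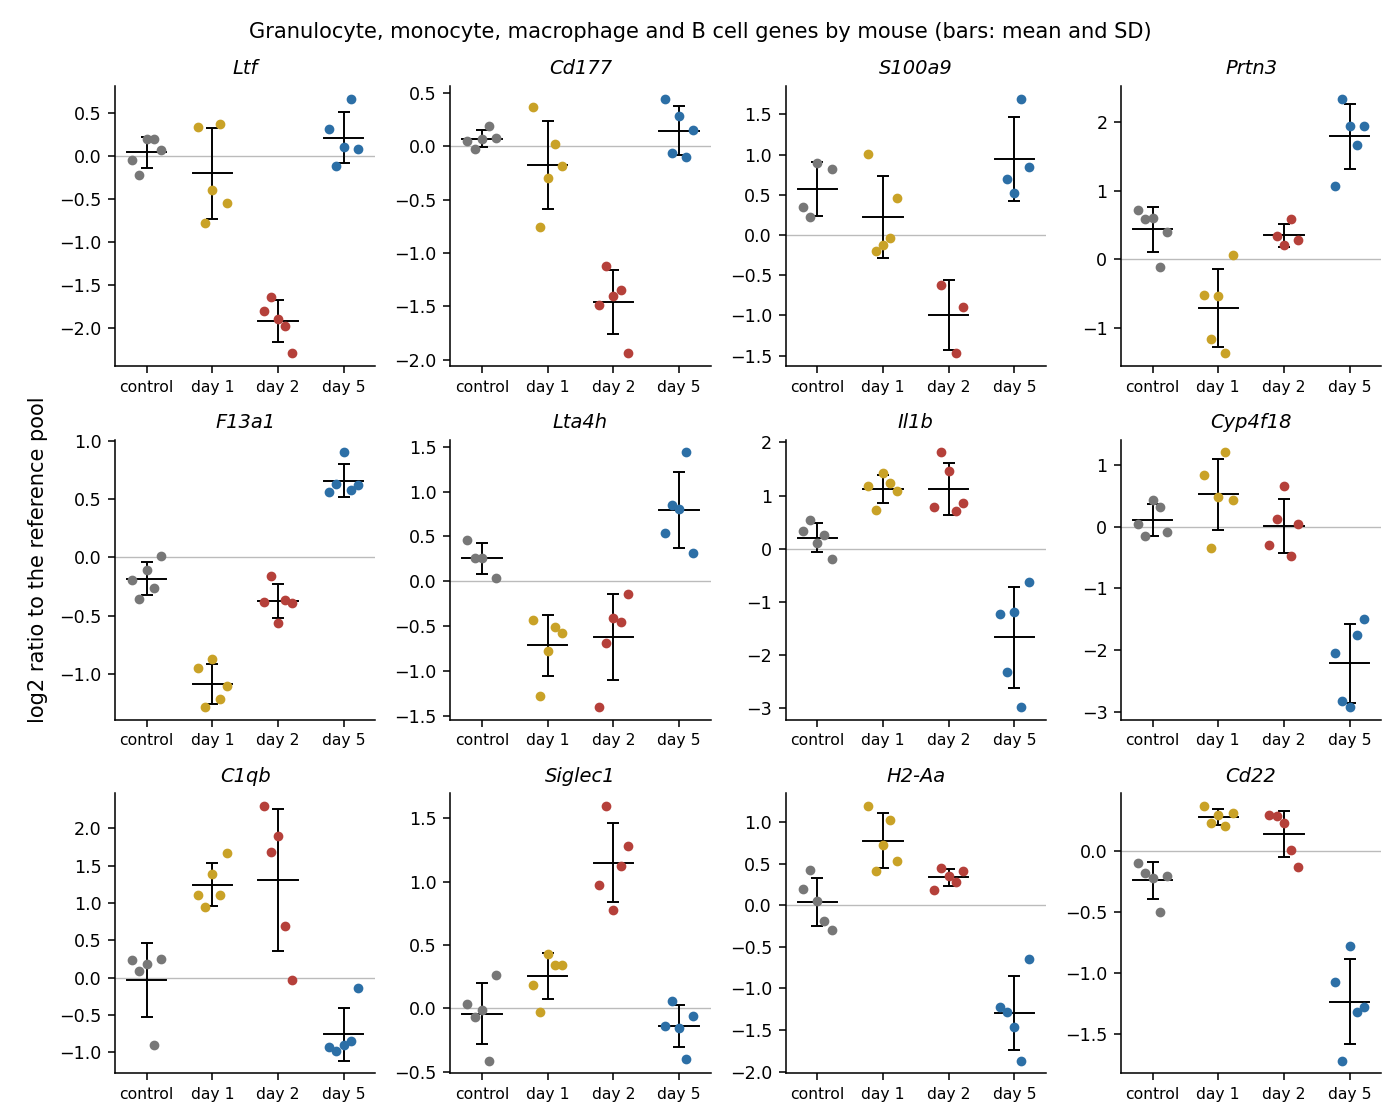
Log2 ratios to the reference pool (y axis) of 12 genes in the 5 mice of each group (x axis), with bars at the mean and SD. On day 5 Ltf, Cd177 and S100a9 lie near the control mice and far above day 2, Prtn3 and F13a1 lie above all other groups, and Cyp4f18, H2-Aa and Cd22 lie below them.

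Mature B and plasma cell genes included 4 of 11 tested members called lower and 0 called higher, with a median of -0.54. Cd22, an inhibitory co-receptor of B cells, was at 0.30, 0.28, 0.23, 0.01 and -0.14 on day 2 and -1.07, -1.72, -0.78, -1.32 and -1.28 on day 5. Its groups were 0.64 apart at their nearest mice, with a difference of -1.37 ± 0.13 (adjusted p = 1.92e-07). Ms4a1, which encodes CD20, was at -0.39, -0.18, -0.46, -0.54 and -0.30 on day 2 and -3.34, -0.74, -3.46, -0.51 and -1.68 on day 5. The day 5 mice were very unequal, mice 1 and 3 lying below -3 and mouse 4 within the day 2 range, and the difference was -1.57 ± 0.40 (adjusted p = 0.00666). Fcmr, the receptor for IgM, was at 0.03, -0.07, 0.11, 0.13 and 0.38 on day 2 and -0.81, -1.42, -0.26, -4.75 and -0.21 on day 5, so that mouse 4 of day 5 set the size of its difference of -1.61 ± 0.51 (adjusted p = 0.0262). Without that mouse the difference was -0.79 (adjusted p = 0.00565). The Fcmr call with all mice was lost when the 10 mice were fitted alone (adjusted p = 0.0956), with only values measured on both arrays (0.0614), with a robust prior (0.0546) and without moderation (0.0804). Ly6d, a surface protein of early and mature B cells, fell by 1.7-fold (-0.76 ± 0.19, adjusted p = 0.00673), and without mouse 2 of day 5 its difference was -0.50 (adjusted p = 0.0305). Where only values measured on both arrays of a mouse were used, 2 of 10 members were called.

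Of the 5 tested B cell precursor genes 0 were called by limma, and 0 had an unadjusted p under 0.05. The member with the smallest p was Sox4, a transcription factor of early lymphoid and progenitor cells, at -0.22 ± 0.18 (adjusted p = 0.435). Its values were -0.02, -0.21 and -0.04 in the 3 mice with a value on day 2 and -0.43, -0.44 and -0.06 in the 3 mice with a value on day 5, and the days overlapped. Vpreb1, part of the surrogate light chain, differed by -0.06, and Vpreb3 by -0.21. Over the 2 precursor genes measured in every mouse the mean ratio was -1.27 to -0.69 on day 2 and -1.55 to -0.32 on day 5, so that neither day was near 0.

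T and NK cell genes gave 1 call in each direction among 6 tested. Besides Nkg7, Lat, the adaptor below the T cell receptor, fell by 1.42-fold (-0.51 ± 0.13, adjusted p = 0.00737). Of 7 megakaryocyte and platelet genes, 3 were lower and 0 higher, with a median of -0.49. Ppbp, the platelet chemokine precursor that is also called platelet basic protein, was at 0.73, 0.74, 0.27, 0.01 and 1.28 on day 2 and -1.02, -0.72, -0.78, -1.09 and -0.36 on day 5. The lowest day 2 mouse was 0.37 above the highest of day 5, and Ppbp fell by 2.64-fold (-1.40 ± 0.21, adjusted p = 4.79e-05). Plek, pleckstrin, fell by 1.76-fold (-0.82 ± 0.17, adjusted p = 0.00166), and F2rl2, a thrombin receptor, by 1.67-fold (-0.74 ± 0.11, adjusted p = 9.82e-05).

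Among 8 genes of stem and progenitor cells only Meis1, a homeobox factor of that compartment, was called, and it fell by 1.51-fold (-0.60 ± 0.12, adjusted p = 0.00109). Among 4 genes of eosinophils, basophils and mast cells only Tpsb2, a mast cell tryptase, was called, with a fall of 1.58-fold (-0.66 ± 0.16, adjusted p = 0.0059). The other mast cell genes Cpa3 (-0.04), Fcer1a (0.04) and Ms4a2 (0.0014) lay near 0.

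**Figure D3:**
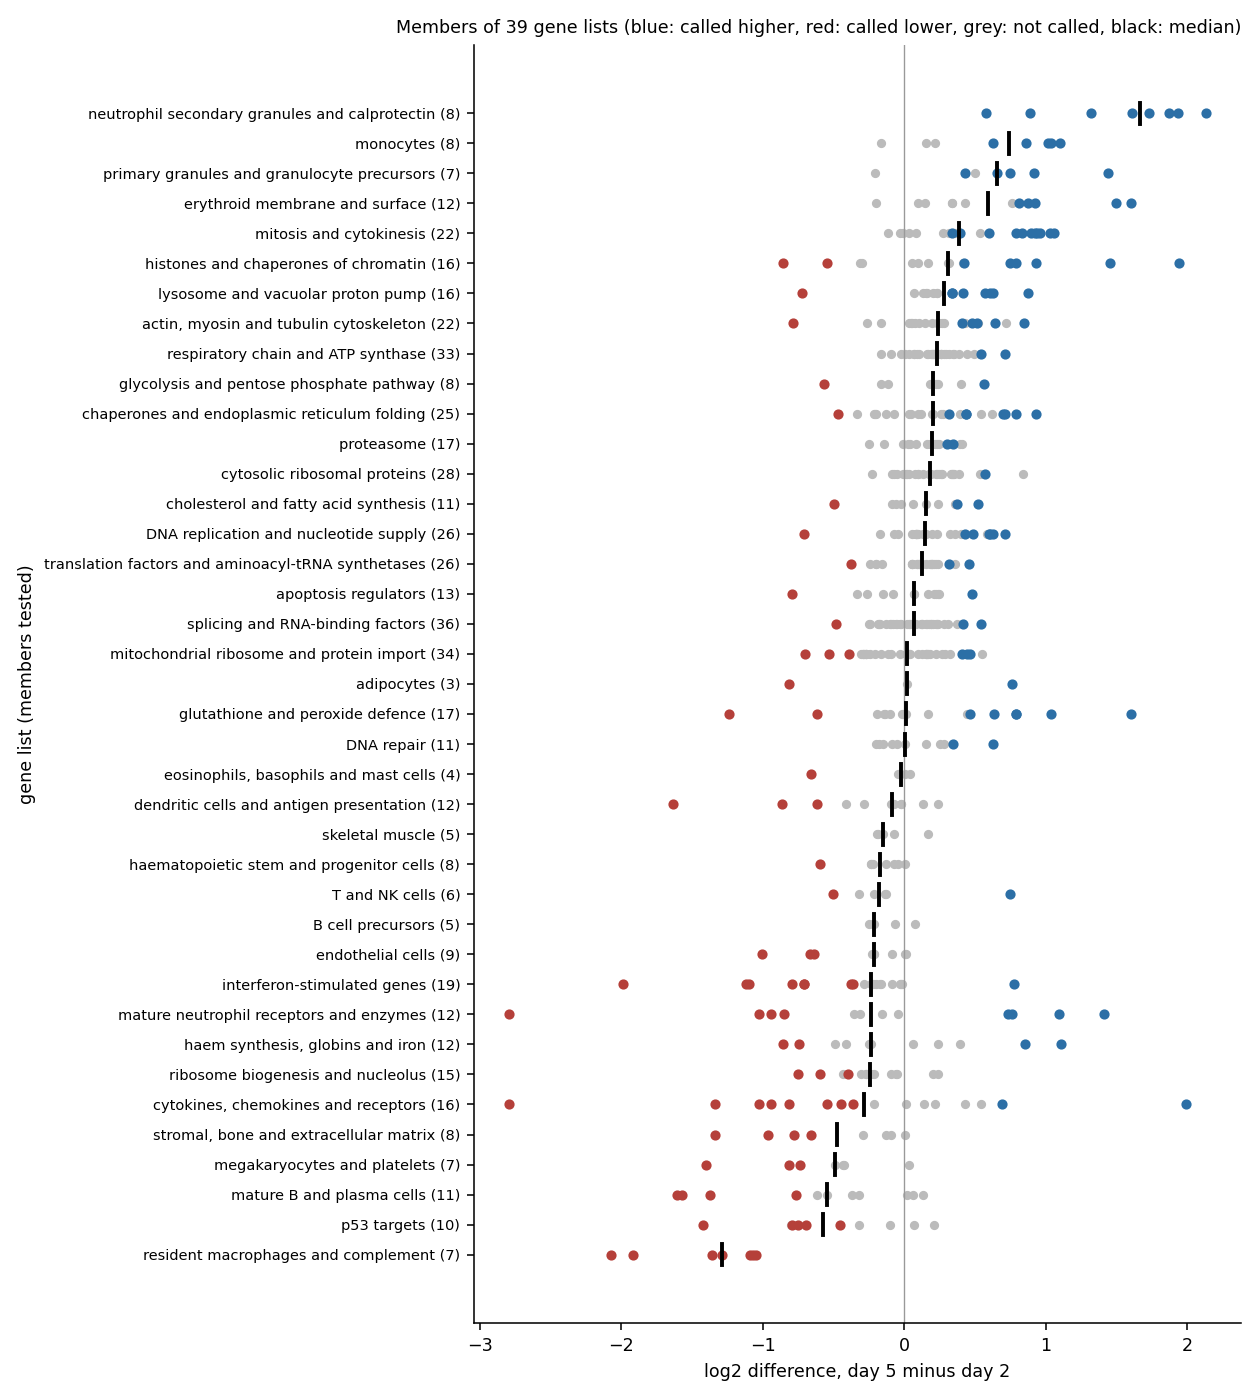
Each row is 1 of 39 gene lists with the number of members tested, ordered by the median. Points are the log2 differences of day 5 minus day 2 (x axis) of the members, blue where called higher, red where called lower and grey where not called, and the black bar is the median. Secondary granule genes are at the top (median 1.67) and resident macrophage genes at the bottom (median -1.29).

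Of 12 tested erythroid membrane and surface genes 5 were called higher on day 5, 0 were called lower and 7 were not called, with a median of 0.59. Btnl10, a butyrophilin-like protein of erythroid cells, was at -1.97, -1.91, -2.47, -1.87 and -2.17 on day 2 and -0.16, -0.19, -0.38, -1.97 and -0.19 on day 5. Mouse 4 of day 5 lay inside the day 2 range while the other 4 day 5 mice lay above every day 2 mouse. The difference was 1.50 ± 0.26 (adjusted p = 2.46e-04) with mouse 4 and 1.85 without it. Mgst3, a microsomal glutathione transferase that erythroid cells express strongly, had the same shape, at -1.96, -1.86, -2.29, -1.54 and -2.06 on day 2 and -0.03, -0.04, -0.15, -1.78 and 0.29 on day 5. Its difference was 1.60 ± 0.25 (adjusted p = 9.22e-05) and 1.96 without mouse 4. Kel, the Kell blood group protein, differed by 0.87 ± 0.23 (adjusted p = 0.00823) and by 1.17 without mouse 4. Icam4, the erythroid adhesion molecule of the LW blood group, differed by 0.93 ± 0.29 (adjusted p = 0.0279) and by 1.20 without mouse 4. The Icam4 call was lost when any 1 of mice 1, 2 or 3 of day 2 or of mice 1, 2, 3 or 5 of day 5 was left out, when the 10 mice were fitted alone (adjusted p = 0.0716) and without moderation (0.0778). Ank1 (0.81), ankyrin of the red cell membrane, was the remaining call.

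Over the 9 erythroid membrane genes measured in all 10 mice, the mean ratio of the day 5 mice was -0.07, -0.22, -0.18, -1.30 and -0.07, against -1.48 to -0.96 on day 2. Mouse 4 was thus the only day 5 mouse at the day 2 level. Without mouse 4 of day 5, 7 of 12 members were called higher and the median was 0.76. The count was 3 without mouse 3 of day 2, and 3 without mouse 1 or mouse 2 of day 5.

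The genes of haem synthesis, globin and iron did not share a direction: 2 of 12 were higher and 2 lower, with a median of -0.24. Ppox, protoporphyrinogen oxidase, was at -1.94, -1.73, -1.80, -1.40 and -1.15 on day 2 and -0.12, -0.30, -0.31, -1.35 and -0.41 on day 5. Here too mouse 4 of day 5 lay among the day 2 mice, and the difference was 1.11 ± 0.21 (adjusted p = 7.18e-04), or 1.32 without that mouse. Abcb10, a mitochondrial transporter of erythroid cells, rose by 0.85 ± 0.27 (adjusted p = 0.0308), a call that was lost when mouse 1 or 3 of day 2 or mouse 5 of day 5 was left out. It was also lost when the 10 mice were fitted alone (adjusted p = 0.0776), with quantile normalization (0.111), with arrays scaled to a common spread (0.0907) and without moderation (0.0944). Alas2 encodes the erythroid enzyme that starts haem synthesis, and it went down rather than up, at 0.40, -0.41, 0.04, 0.12 and -0.29 on day 2 and -0.43, -0.97, -0.55, -1.66 and -0.82 on day 5. Mouse 4 of day 5 was again the lowest, and Alas2 fell by 1.81-fold (-0.86 ± 0.21, adjusted p = 0.00594). Ftl1, ferritin light chain, fell by 1.68-fold (-0.74 ± 0.16, adjusted p = 0.00292).

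Endothelial and stromal genes were lower on day 5 wherever they were called. Of 9 endothelial genes 3 were lower and 0 higher. Plvap, a protein of the diaphragms of fenestrated endothelium, was at 0.16, 0.16, 0.92, 0.97 and 1.22 on day 2 and -0.21, -0.27, -0.36, -0.52 and -0.23 on day 5, and it fell by 2.01-fold (standard error 0.18 on the log2 scale, adjusted p = 5.12e-04). Mice 3 to 5 of day 2 were far above mice 1 and 2, yet no day 5 mouse reached any of them. Flt1 and Kdr, 2 receptors for vascular endothelial growth factor, fell by 1.59-fold (-0.67 ± 0.15, adjusted p = 0.00246) and 1.56-fold (-0.64 ± 0.21, adjusted p = 0.0304). The Kdr call was lost without any 1 of mice 1, 2 or 3 of day 2 or mice 2 or 3 of day 5. Cdh5 (-0.21), the endothelial cadherin, was not called.

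Stromal, bone and matrix genes gave 4 of 8 members lower and 0 higher, with a median of -0.47. Cxcl12, the stromal chemokine that retains stem cells and B cell precursors in marrow, was at 1.52, 1.46, 0.72, -0.39 and -0.21 on day 2 and -0.87, -0.45, -1.07, -1.03 and -0.14 on day 5. Mice 1 to 3 of day 2 were high, while mice 4 and 5 of day 2 lay within the day 5 range, and the difference was -1.33 ± 0.31 (adjusted p = 0.00316). Fstl1, a secreted glycoprotein of mesenchymal cells, separated the days more evenly and fell by 1.95-fold (-0.97 ± 0.12, adjusted p = 3.59e-06). Col5a2, a collagen chain, fell by 1.58-fold (-0.66 ± 0.18, adjusted p = 0.00957), and its difference was -0.54 without mouse 4 of day 5. The last call was Bgn, the proteoglycan biglycan, which fell by 1.71-fold (-0.78 ± 0.24, adjusted p = 0.0285). Bgn had a value in 4 mice of day 2 and 3 of day 5. The Bgn call was lost without mouse 1 or mouse 3 of day 2, and without mouse 3 the difference was -0.50. Among 3 adipocyte genes, Adipoq, the hormone adiponectin, fell by 1.76-fold (-0.81 ± 0.15, adjusted p = 5.20e-04), while Dgat2, an enzyme of triglyceride synthesis that other cells also use, rose by 0.76 ± 0.19 (adjusted p = 0.00647). Of 5 skeletal muscle genes 0 were called by limma and 0 had an unadjusted p under 0.05. Tpm2, a tropomyosin, had the smallest p of these, at -0.19 ± 0.11 (adjusted p = 0.257), and its values were 0.36, 0.35, 0.34, 0.27 and 0.12 on day 2 and 0.11, 0.15, 0.07, 0.10 and 0.06 on day 5.

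Of 10 tested targets of p53, 5 were called lower on day 5, 0 were called higher and 5 were not called, with a median of -0.58. The transcription factor p53 is stabilised by DNA damage and switches on genes of cell cycle arrest and death. Cdkn1a encodes the inhibitor p21, which arrests cells before they divide, and its values were 1.17, 0.94, 1.60, 2.31 and 2.03 on day 2 and -0.0017, 0.21, 0.13, 0.29 and 0.32 on day 5. All day 5 mice were between -0.002 and 0.32 while the lowest day 2 mouse was at 0.94, and the difference was -1.42 ± 0.26 (adjusted p = 4.89e-04). Its difference from untreated mice was 1.70 (adjusted p = 1.58e-04) on day 2 and 0.27 (adjusted p = 0.852) on day 5. Tnfrsf10b, a death receptor, fell by 1.73-fold (-0.79 ± 0.15, adjusted p = 7.55e-04), and Sesn2, a stress-induced regulator of growth signalling, by 1.68-fold (-0.75 ± 0.15, adjusted p = 0.00104). Trp53inp1, a p53-induced nuclear protein, had a different time course. It fell by 1.62-fold (-0.70 ± 0.16, adjusted p = 0.00483) and stood below untreated mice on day 5, with a difference of -0.96 (adjusted p = 0.00285), whereas its day 2 difference was -0.26 (adjusted p = 0.288). Zmat3 (-0.45) completes the 5. Bbc3 (0.21), which encodes the death effector Puma, and Btg2 (0.07), an antiproliferative factor, were not called.

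Of 22 tested mitosis genes 11 were called higher, 0 were called lower and 11 were not called, with a median of 0.39. Cdk1, the kinase that drives entry into mitosis, was at -1.01, -0.47, -0.77, -0.18 and -0.27 on day 2 and 0.44, 0.47, 0.43, 0.36 and 0.28 on day 5. The day 5 mice lay within 0.19 of each other and above every day 2 mouse, with a difference of 0.93 ± 0.15 (adjusted p = 1.04e-04). Nusap1, which bundles spindle microtubules, was at -1.49, -1.25, -1.59, -1.31 and -0.82 on day 2 and 0.01, -0.35, -0.26, -0.47 and -0.25 on day 5, a difference of 1.03 ± 0.14 (adjusted p = 2.40e-05). Cks2, which binds cyclin-dependent kinases, rose by 1.06 ± 0.21 (adjusted p = 8.94e-04), and Nuf2, a kinetochore protein, by 0.96 ± 0.12 (adjusted p = 6.23e-06). The other 7 called members were Ect2 (0.93), Smc4 (0.90), Cdca8 (0.83), Tpx2 (0.79), Incenp (0.60), Ttk (0.39) and Hmmr (0.34). Against untreated mice the median of the list was -0.55 on day 2 and 0.01 on day 5, and Cdk1 differed from untreated mice by 0.17 (adjusted p = 0.83) on day 5 and by -0.77 (adjusted p = 0.00134) on day 2. Not every mitotic gene moved, since Cdc20 (-0.03), the activator of the anaphase-promoting complex, and Plk1 (0.28), a mitotic kinase, were not called. Between 9 and 12 members were called when a single mouse was left out.

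The promoters of 2 called mitosis genes are shown because genes of this class are known to carry a cell cycle homology region, whose core letters are TTTGAA. Both were read from the RefSeq promoter table of build GRCm38.p6, in a window that spans the annotated start, and are written 5′ to 3′ along the gene with the TTTGAA letters in capitals. The Cdk1 window is chr10:69352863-69353162, minus strand and the Ect2 window is chr3:27153829-27154128, minus strand.
Cdk1: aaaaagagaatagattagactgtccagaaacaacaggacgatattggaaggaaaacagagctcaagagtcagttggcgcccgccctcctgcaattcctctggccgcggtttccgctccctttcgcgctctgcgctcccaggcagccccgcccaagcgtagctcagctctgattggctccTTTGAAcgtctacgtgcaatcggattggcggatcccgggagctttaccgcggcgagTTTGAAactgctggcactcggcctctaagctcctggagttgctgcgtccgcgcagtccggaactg
Ect2: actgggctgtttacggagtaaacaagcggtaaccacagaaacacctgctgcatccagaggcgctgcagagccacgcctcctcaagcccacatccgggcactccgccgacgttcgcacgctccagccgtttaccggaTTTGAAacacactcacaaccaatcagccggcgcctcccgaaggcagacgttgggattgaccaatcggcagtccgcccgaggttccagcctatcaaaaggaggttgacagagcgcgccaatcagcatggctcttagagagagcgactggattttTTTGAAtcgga
In Cdk1 the letters lie at bases 180 to 185 and 236 to 241 of the window, and in Ect2 at bases 137 to 142 and 290 to 295. On either strand TTTGAA was found in 6 of 9 promoters of the 8 called members that had an entry, namely those of Cdca8, Cdk1, Ect2, Hmmr and Ttk. It was found in 8 of 11 promoters of the tested members that were not called, and in 5878 of 32851 promoters of the table (17.9%). The CCAAT box, searched as CCAAT, was in 7 of 9, 9 of 11 and 37.4% respectively. Called and uncalled members thus held these letters in similar shares, and a match is no proof of a bound site.

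DNA replication and nucleotide supply gave 6 of 26 members higher and 1 lower, with a median of 0.15. Pcna, the sliding clamp of DNA polymerases, was at -0.84, -0.74, -1.09, -0.54 and -0.59 on day 2 and 0.07, -0.13, 0.04, -0.39 and 0.16 on day 5. The lowest day 5 mouse, mouse 4, was 0.15 above the highest day 2 mouse, and the difference was 0.71 ± 0.13 (adjusted p = 5.55e-04). Tyms, thymidylate synthase, rose by 0.62 ± 0.14 (adjusted p = 0.0032), and Gins4, a subunit of the replicative helicase, by 0.60 ± 0.14 (adjusted p = 0.00313). Tk1 (0.60), Rpa3 (0.49) and Cdc6 (0.43) were the other rises. The helicase subunits Mcm4 (0.05) and Mcm6 (0.14) were not called. Cad, the enzyme that begins pyrimidine synthesis, was the exception and fell by 1.63-fold (-0.71 ± 0.14, adjusted p = 0.00115), with a difference of -0.57 without mouse 4 of day 5.

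Histones and chromatin factors gave 6 of 16 members higher and 2 lower, with a median of 0.31. Hmgn2, a nucleosome-binding protein, was at -1.43, -0.75, -1.11, -0.52 and -0.51 on day 2 and 0.92, 1.05, 1.10, 1.53 and 0.76 on day 5. The lowest day 5 mouse was 1.28 above the highest of day 2, and the difference was 1.94 ± 0.18 (adjusted p = 1.47e-07). Its close relative Hmgn1 was at 0.31, 0.28, 0.20, 0.30 and 0.33 on day 2 and -0.39, -0.22, -0.59, -1.28 and -0.40 on day 5. Hmgn1 went in the opposite direction without overlap, with a fall of 1.81-fold (-0.86 ± 0.14, adjusted p = 1.52e-04). On day 5 Hmgn1 was also below untreated mice, with a difference of -0.70 (adjusted p = 0.00489), and Hmgn2 differed from them by 0.65 (adjusted p = 0.0571). Asf1b, a histone chaperone of dividing cells, rose by 1.45 ± 0.18 (adjusted p = 5.07e-06), and H2ax, a histone variant, rose by 0.93 ± 0.14 (adjusted p = 6.09e-05). The other calls were H2az1 (0.79), H3f3a (0.75) and Hmgb3 (0.42) upward and the histone gene H2bc4 (-0.55) downward. Near-identical histone genes may share signal on such probes.

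Of 11 DNA repair genes 2 were higher and 0 lower, with a median of 0.003, where 20% of all features were called. Fancg, of the Fanconi anaemia pathway that removes cross-links, rose by 0.63 ± 0.18 (adjusted p = 0.0197), and Rev3l, the catalytic subunit of a polymerase that copies past lesions, by 0.34 ± 0.11 (adjusted p = 0.0275). The call of Fancg, which had a value in only 3 mice of day 5, was lost without mouse 1 or 3 of day 2. The Rev3l call was lost without mouse 1 of day 2 or without mouse 2, 3 or 4 of day 5. Without mouse 3 of day 5, 0 of 8 tested members were called. The list had 1 call without mouse 3 of day 2 or without any 1 of mice 1, 2, 4 and 5 of day 5. Apoptosis regulators gave 1 call in each direction among 13, Tnfrsf10b downward and Casp6, an executioner caspase, upward by 0.48 ± 0.16 (adjusted p = 0.0436). Casp6 had a value in only 3 mice of each day. The Casp6 call was lost without mouse 1 or mouse 3 of day 2, and the list had 1 call without any 1 mouse except mouse 5 of day 2 and mice 1 and 3 of day 5.

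**Figure D4:**
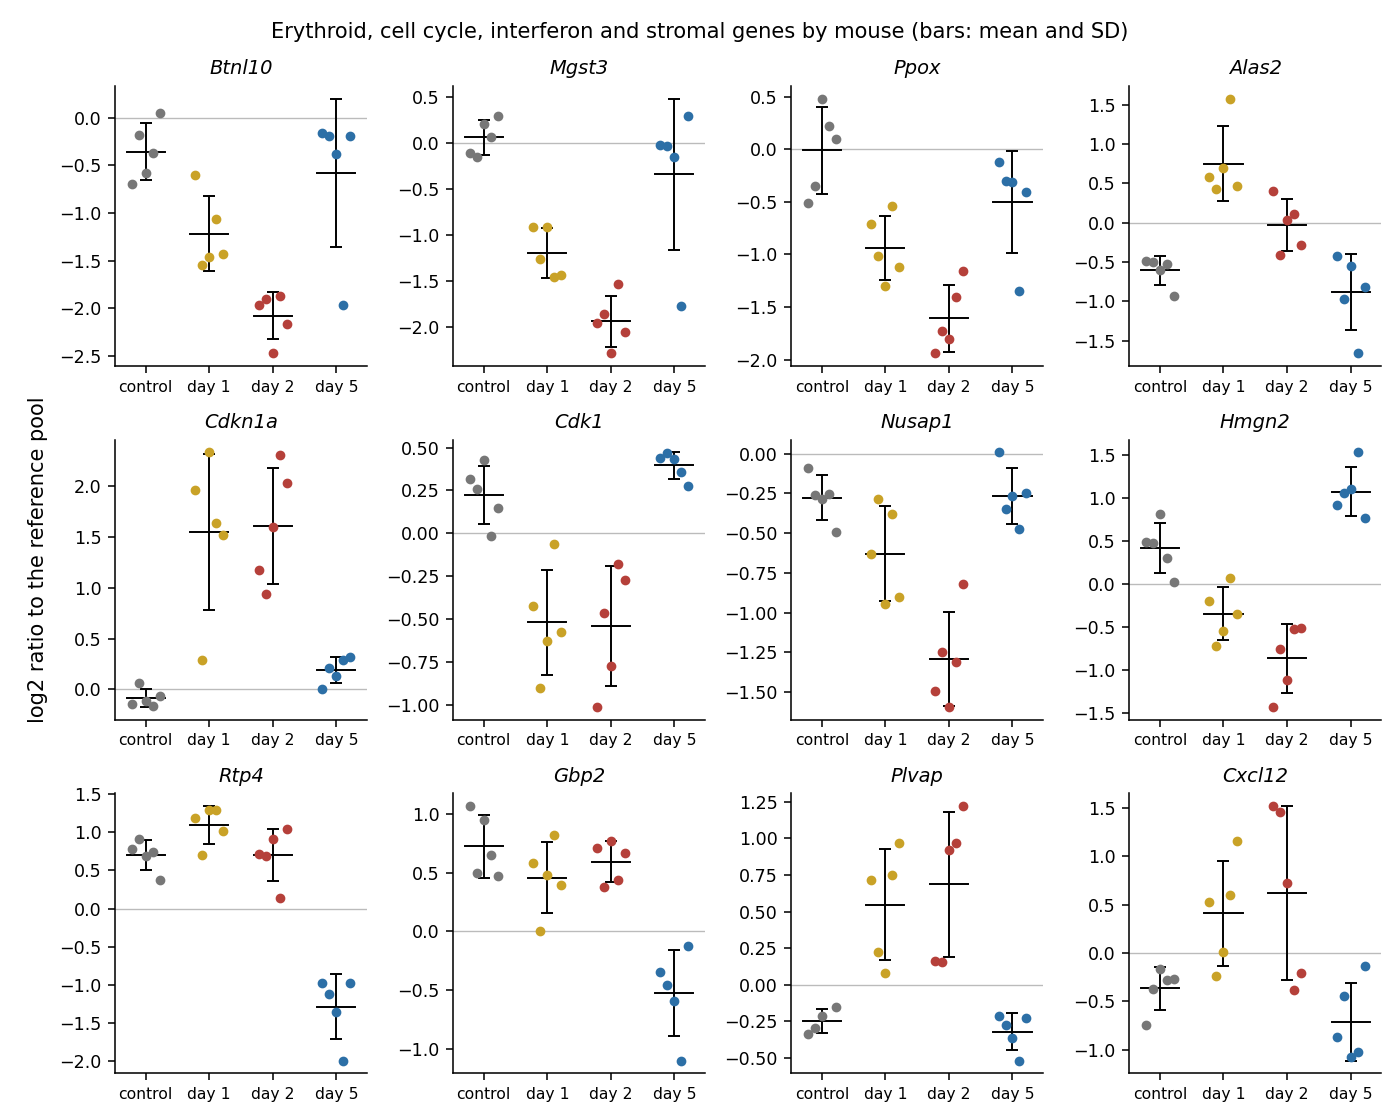
Log2 ratios to the reference pool (y axis) of 12 genes in the 5 mice of each group (x axis), with bars at the mean and SD. In Btnl10, Mgst3 and Ppox 1 day 5 mouse, mouse 4, lies at the day 2 level. Cdkn1a, Cdk1 and Nusap1 lie near the control mice on day 5, and Rtp4 and Gbp2 lie below them.

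Of 19 tested interferon-stimulated genes 8 fell, 1 rose and 10 were not called, with a median of -0.23. Rtp4, an interferon-induced chaperone of membrane receptors, was at 0.72, 0.69, 0.91, 0.14 and 1.04 on day 2 and -0.97, -1.12, -1.36, -1.99 and -0.98 on day 5. Its groups were 1.11 apart at their nearest mice, and it fell by 3.96-fold (-1.99 ± 0.18, adjusted p = 1.04e-07). Gbp2, a guanylate-binding protein of cell-autonomous defence, was at 0.71, 0.38, 0.77, 0.44 and 0.67 on day 2 and -0.34, -0.46, -0.59, -1.10 and -0.13 on day 5, a fall of 2.17-fold (-1.12 ± 0.16, adjusted p = 4.41e-05). Neither gene passed against untreated mice on day 2 and both were lower on day 5. Rtp4 differed from untreated mice by -0.0013 (adjusted p = 0.996) on day 2 and -1.99 (adjusted p = 1.41e-07) on day 5, and Gbp2 by -0.13 (adjusted p = 0.633) and -1.25 (adjusted p = 5.25e-05). Oasl2, of the oligoadenylate synthetase family, fell by 2.14-fold (-1.10 ± 0.13, adjusted p = 3.59e-06), and Iigp1, an immunity-related GTPase, by 1.73-fold (-0.79 ± 0.17, adjusted p = 0.00214). Ifih1 (-0.71), a sensor of viral RNA, Ifi47 (-0.71), Mx2 (-0.38) and Cxcl10 (-0.36) were the other falls. Ifitm2 (0.78), an antiviral membrane protein, was the rise. Outside the list, 2 genes of interferon-inducible families were among the 15 largest falls, Ifi27l2a (-1.59 ± 0.27, adjusted p = 2.37e-04) and Gbp8 (-1.38 ± 0.19, adjusted p = 2.25e-05).

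The promoters of Gbp2 and Ifih1 are shown because they hold the letters of the interferon-stimulated response element (GAAA, any 2 bases, GAAA), in capitals below, from the same RefSeq table. The Gbp2 window is chr3:142620413-142620712, plus strand, with the element read on the opposite strand at bases 192 to 201. The Ifih1 window is chr2:62646206-62646505, minus strand, with the element at bases 283 to 292, after the annotated start.
Gbp2: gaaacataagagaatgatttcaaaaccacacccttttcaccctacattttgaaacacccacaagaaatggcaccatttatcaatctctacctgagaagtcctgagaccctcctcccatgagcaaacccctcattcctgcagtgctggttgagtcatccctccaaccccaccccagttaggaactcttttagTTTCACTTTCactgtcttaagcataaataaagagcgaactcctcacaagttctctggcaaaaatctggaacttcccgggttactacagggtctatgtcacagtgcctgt
Ifih1: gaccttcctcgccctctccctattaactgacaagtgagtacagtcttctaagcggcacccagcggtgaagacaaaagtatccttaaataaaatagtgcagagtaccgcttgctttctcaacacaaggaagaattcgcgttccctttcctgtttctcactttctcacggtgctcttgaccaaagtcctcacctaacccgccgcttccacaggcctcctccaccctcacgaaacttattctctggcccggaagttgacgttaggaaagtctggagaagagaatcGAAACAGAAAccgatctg
The letters were found on either strand in 3 of 5 promoters of the called-lower members that had an entry (Cxcl10, Gbp2 and Ifih1). They were in 3 of 12 promoters of the other tested members and in 1131 of 32851 promoters of the table (3.44%). With 5 promoters these shares are a description only.

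Among 16 cytokines, chemokines and receptors, 8 were lower and 2 higher, with a median of -0.29. Tnfsf13, which encodes APRIL, a survival factor for plasma cells made by myeloid cells, was at -0.77, -0.49, -0.63, -0.42 and -0.74 on day 2 and 1.04, 1.39, 1.10, 2.07 and 1.28 on day 5. The day 2 mice lay within 0.36 of each other and at least 1.46 below every day 5 mouse, and the difference of 1.99 ± 0.15 had the smallest p of all named genes (3.97-fold, adjusted p = 1.19e-08). On day 5 it was also above untreated mice, by 1.12 (adjusted p = 5.74e-05), after a day 2 difference of -0.87 (adjusted p = 5.12e-04). Ccl9 (0.69), a myeloid chemokine, was the other rise. Besides Il1b, Cxcl12 and Ccl6, the falls included Ccl2 (-0.81), which recruits monocytes, Il17ra (-0.55), Tgfbr2 (-0.44), Il1rn (-0.94) and Cxcl10.

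Several of the largest changes belonged to none of the lists above. Gpc1, the cell surface proteoglycan glypican 1, was at -0.58, -0.17, -0.37, -0.21 and -0.35 on day 2 and 0.74, 1.43, 0.91, 1.56 and 1.33 on day 5. It was above every day 2 mouse in every day 5 mouse, by 1.53 ± 0.14 (adjusted p = 1.04e-07), and above untreated mice on day 5 by 0.89 (adjusted p = 3.58e-04). Ptprf, a receptor tyrosine phosphatase, rose by 1.56 ± 0.20 (adjusted p = 1.21e-05). Pcdh8, a protocadherin, rose by 1.42 ± 0.16 (adjusted p = 1.61e-06). Abhd5, the co-activator of triglyceride lipase, rose by 1.34 ± 0.14 (adjusted p = 4.92e-07), or by 1.22 without mouse 4 of day 5, and Tmed3, a cargo receptor of the secretory pathway, by 1.33 ± 0.16 (adjusted p = 3.59e-06). Gimap3, a GTPase of lymphocytes, fell by 2.42-fold (-1.27 ± 0.18, adjusted p = 2.69e-05).

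Genes of the secretory pathway and of the lysosome were mostly higher where called. Of all features, 10% were called higher and 9.96% lower. Of 25 chaperone and endoplasmic reticulum genes 7 were higher and 1 lower, with a median of 0.20. Sec11c, a subunit of the signal peptidase, was at -0.84, -0.15, -0.70, 0.07 and 0.05 on day 2 and 0.59, 0.72, 0.49, 1.03 and 0.25 on day 5, a difference of 0.93 ± 0.18 (adjusted p = 6.15e-04). Ero1a, the oxidase that supplies disulphide bonds, was at -0.46, -0.08, -0.59, -0.21 and -0.44 on day 2 and 0.27, 0.39, 0.25, 0.74 and 0.12 on day 5, a difference of 0.71 ± 0.11 (adjusted p = 1.15e-04). Neither gene showed overlap between the days. Sdf2l1, an endoplasmic reticulum chaperone cofactor, rose by 0.79 ± 0.16 (adjusted p = 0.00104), and Ostc, of the oligosaccharyltransferase, by 0.70 ± 0.12 (adjusted p = 2.63e-04). Spcs1 (0.43), Spcs2 (0.44) and Ssr2 (0.31) rose too, and the mitochondrial chaperone Hspa9 (-0.47) fell. Without mouse 1 of day 2 the list had 5 calls among 24 members. Of 16 lysosomal and proton pump genes 7 were higher and 1 lower, with a median of 0.28. Subunits and partners of the pump rose in Atp6ap2 (0.87 ± 0.18, adjusted p = 0.00102), Atp6v1e1 (0.63 ± 0.16, adjusted p = 0.00724) and Atp6v0e (0.61 ± 0.14, adjusted p = 0.00295). Another subunit, Atp6v1d, fell by 1.65-fold (-0.72 ± 0.19, adjusted p = 0.00809).

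Antioxidant genes gave 6 of 17 members higher and 2 lower, with a median of 0.01. Gpx1, the main cytosolic glutathione peroxidase, was at -0.58, -0.70, -0.74, -0.40 and -0.64 on day 2 and 0.52, 0.37, 0.65, 0.10 and 0.46 on day 5. The days were 0.50 apart at their nearest mice, with a difference of 1.03 ± 0.12 (adjusted p = 1.61e-06). Prdx2, the peroxiredoxin of red cells, rose by 0.79 ± 0.22 (adjusted p = 0.0116), and Mgst3, described with the erythroid genes, is also a member. Mgst1 (0.79), Glrx (0.64) and Gpx4 (0.47) were the other rises. Selenop, the selenium transport protein, was at 0.92, 1.32, 1.27, -0.03 and 0.0047 on day 2 and -1.07, -0.38, -0.78 and 0.07 in the 4 mice with a value on day 5. Mice 1 to 3 of day 2 were high while mice 4 and 5 lay near mouse 5 of day 5, and the gene fell by 2.36-fold (-1.24 ± 0.26, adjusted p = 0.00178). Prdx1 (-0.61) was the second fall. With values required in all 10 mice, 5 of 11 members were called.

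Cytoskeletal genes gave 5 of 22 higher and 1 lower (10% and 9.96% of all features), with a median of 0.24. Flna, a filamin, rose by 0.64 ± 0.14 (adjusted p = 0.00268) and Cfl1, cofilin, by 0.51 ± 0.18 (adjusted p = 0.0436). Arpc5 (0.48) and Rac1 (0.40) were among the other rises. Actb, which encodes beta-actin, was at 1.04, 0.73, 1.56, 0.50 and 0.68 on day 2 and -0.27, -0.54, 0.12, 0.81 and 0.44 on day 5 and fell by 1.73-fold (-0.79 ± 0.24, adjusted p = 0.0209). Mouse 4 of day 5 was within the day 2 range. The call of Actb was lost without mouse 1 or 3 of day 2 or mouse 1 or 2 of day 5, and the Cfl1 call without any 1 mouse except mice 2 and 4 of day 2 and mouse 5 of day 5. The Cfl1 difference was 0.32 (adjusted p = 0.384) with quantile normalization and 0.35 (0.288) with arrays scaled to a common spread. Without mouse 1 or mouse 3 of day 2, 3 of 22 members were called.

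Lists of protein synthesis and respiration are read against the 20% of all features that were called. Of 28 cytosolic ribosomal proteins 1 was called, Rpl7a, which rose by 0.57 ± 0.14 (adjusted p = 0.00509). That list had 2 calls without mouse 2 of day 2, mouse 1 of day 5 or mouse 4 of day 5. Of 33 respiratory chain genes 2 rose, Ndufv2 (0.71 ± 0.12, adjusted p = 2.35e-04) and Ndufa8 (0.54 ± 0.15, adjusted p = 0.0145), both of complex I. Their list median was 0.23, against 0.03 over all features. The respiratory list had 1 call without mouse 1 of day 2, when Ndufa8 lost its call, and 4 without mouse 4 of day 2. Of 34 mitochondrial ribosome and import genes 3 rose and 3 fell, among them Mrps18a (0.46 ± 0.11, adjusted p = 0.00496) and Mrps18c (0.44 ± 0.16, adjusted p = 0.0495) upward. Mrpl57 (-0.53 ± 0.12, adjusted p = 0.00316) and Mrpl38 (-0.70 ± 0.13, adjusted p = 4.26e-04) were downward. The Mrps18c call was lost without mouse 1, 4 or 5 of day 2 or mouse 1, 2 or 3 of day 5.

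Of 15 genes of ribosome biogenesis 3 fell and 0 rose, with a median of -0.24. The calls were thus as frequent as the 20% over all features. Ddx21, a nucleolar RNA helicase, fell by 1.68-fold (-0.75 ± 0.16, adjusted p = 0.00197), Nop58, of the box C/D particle, by 1.51-fold (-0.59 ± 0.17, adjusted p = 0.0135) and Ddx56 by 1.31-fold (-0.39 ± 0.10, adjusted p = 0.00593). Translation factors gave 2 of 26 higher, Eif1b (0.46 ± 0.15, adjusted p = 0.0292) and Eif2b2 (0.32 ± 0.11, adjusted p = 0.0361), and 1 lower, Iars (-0.37 ± 0.12, adjusted p = 0.0361), an aminoacyl-tRNA synthetase. Without mouse 4 of day 5 none of these 3 was called, and the count of the list was 1 without mouse 1 or 2 of day 2 or mouse 3 of day 5 and 5 without mouse 1 of day 5. Eif1b lost its call also without mouse 1 or 5 of day 2 or mouse 3 of day 5, and Eif2b2 without any 1 of mice 1 to 4 of day 2 or mouse 3 of day 5. Of the 2 Eif1b probes, 1 had values in 3 mice of day 2 and 0 of day 5, so of these days it entered only day 2. With the best-measured probe of each gene, Eif1b differed by 0.37 and was not called (limma, adjusted p = 0.113). Iars lost its call also without mouse 2, 4 or 5 of day 2 or mouse 2 or 5 of day 5. Of 17 proteasome genes 2 rose, Psmb6 (0.30 ± 0.11, adjusted p = 0.0481) and Psmb7 (0.35 ± 0.12, adjusted p = 0.0445). No proteasome gene was called without mouse 1 or 3 of day 2 or without mouse 1, 3 or 4 of day 5, and 1 was called without mouse 4 of day 2 or mouse 2 of day 5. Psmb6 was also not called without mouse 5 of either day. Splicing factors gave 2 of 36 higher, Snrpb2 (0.54 ± 0.16, adjusted p = 0.0238) and Hnrnpd (0.42 ± 0.11, adjusted p = 0.00853), and 1 lower, Snrpn (-0.48 ± 0.11, adjusted p = 0.00321). Snrpb2 had a value in only 3 mice of each day.

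Among metabolic genes, Aldoa, the glycolytic aldolase, rose by 0.56 ± 0.14 (adjusted p = 0.00512), or by 0.44 without mouse 4 of day 5. Slc2a1, a glucose transporter, fell by 1.48-fold (-0.57 ± 0.12, adjusted p = 0.00197). These were the only calls among 8 genes of glucose metabolism. Of 11 genes of cholesterol and fatty acid synthesis Elovl1 (0.52 ± 0.11, adjusted p = 0.00112) and Msmo1 (0.37 ± 0.12, adjusted p = 0.027) rose and Fads2 (-0.50 ± 0.14, adjusted p = 0.0151) fell. Without mouse 5 of day 5 this list had 5 calls. Msmo1 lost its call without mouse 1 or 3 of day 2 or mouse 4 of day 5, and Fads2 without mouse 4 of day 5.

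A further measured fact stands beside the falls. Among the genes called lower, 10 known from other tissues rather than marrow were picked by hand, after their values had been seen. How many such genes were called lower, called higher or not called was not counted. The 10 include Olfr159, an olfactory receptor, Hcrt, the neuropeptide orexin, Oaz3, a gene of the testis, and Serpina1a, a secreted protein of the liver. Their mean ratio was 1.00, 0.14, 0.81, 0.63 and 0.38 in the 5 mice of day 2 and 0.01, -0.40, -0.22, -0.96 and -0.22 in those of day 5. Day 1 mice stood at 0.20 to 0.97 and untreated mice at -0.31 to -0.16, so that mouse 1 of day 2 and mouse 4 of day 5 mark the ends. The same mice had the widest spread of values over all genes on their days (SD 0.452 and 0.446), although mouse 3 of day 2 (SD 0.449) was close to mouse 1.

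Among the named genes, the mouse-to-mouse deviations from the day means followed this 10-gene mean at Pearson r above 0.8 over the mice with a value in Alas2, Atp6v1d, Cad, Ccr9, Fads2, Iigp1, Mrpl38, Oasl2 and Tpsb2, all of them called lower. The correlation was below -0.8 in Aldoa, Ero1a, Flna and Ptprf, all called higher. These are descriptions over at most 10 mice that share their arrays, and the part of this pattern in the result of each gene was not tested. By list, 3 of the 9 interferon-stimulated genes called (8 lower and 1 higher) were above 0.8. The count was 0 among the called genes of secondary granules, macrophages, p53 targets, mitosis, mature B cells and erythroid membrane. Outside the set, 176 of 529 features called lower (33.3%) and 1 of 515 called higher (0.19%) were above 0.8. The called genes of secondary granules, mitosis and erythroid membrane were all called higher, so their count of 0 carries no information.

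**Figure D5:**
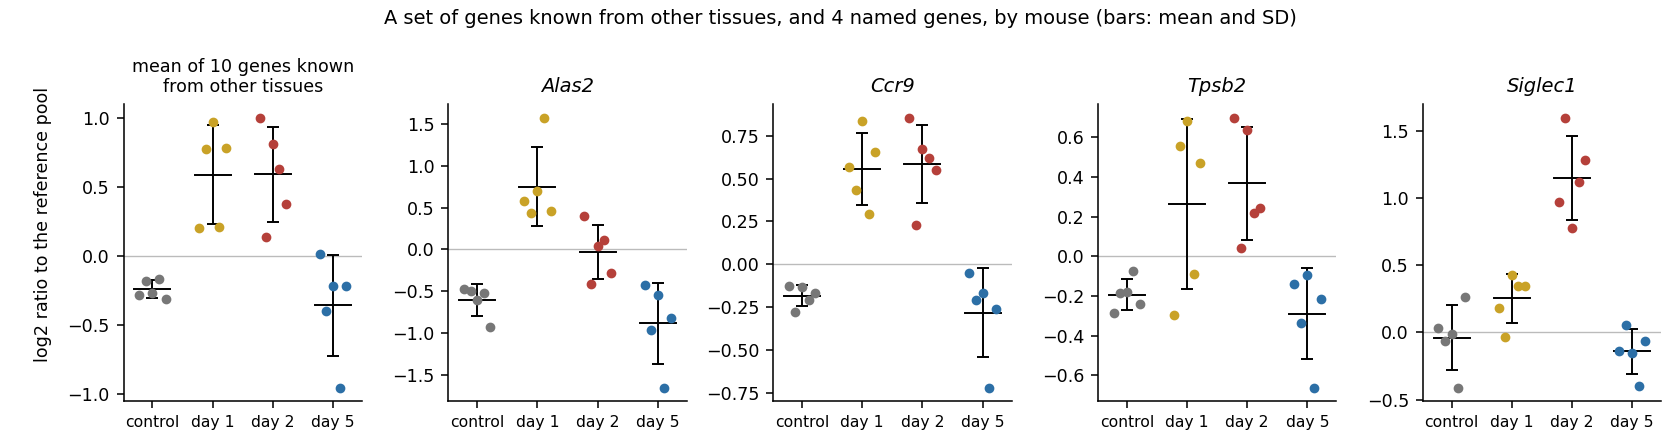
The first panel gives, for each mouse (x axis: group), the mean log2 ratio to the reference pool of 10 genes known from other tissues, and the other panels give Alas2, Ccr9, Tpsb2 and Siglec1. Bars are the mean and SD. Mouse 4 of day 5 is the lowest point of day 5 in all 5 panels, and mouse 1 of day 2 is the highest of its day in the first 4 but not in Siglec1.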

How the data were processed

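The authors' deposited values, per the labels, compare Cy5-labelled amplified RNA of 1 mouse with a Cy3-labelled common reference and are 1 log2 ratio per probe and array as read here. The sources used here do not state the scanner, background correction, normalization, log base or the rule that left 44.23% to 65.91% of probes blank per array. Array medians lay between -0.008 and 0.007. No blank was filled, and 217 values (0.19%) that look saturated (within 0.001 of a value that many probes of the array share) were kept.

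The 2 arrays of a mouse were averaged, then probes with 1 gene symbol (10032 of 13443; 170 had several and 3241 none) were averaged per gene, and symbols were updated through the RefSeq table. limma 3.58.1 under R 4.3.3 fitted 1 mean per group over all 20 mice and moderated the variances by empirical Bayes (median SE 0.134). Genes were called at a Benjamini-Hochberg adjusted p under 0.05 over the 5501 tested. On simulated data with 5501 genes, 48 of 50 changes of 1 and 48 of 50 of -1 (log2) were called, 20 of 50 of 0.5 and 25 of 50 of -0.5, with 10 false calls. The simulated noise was normal and independent between genes, with 1 spread per gene for all mice. Only the genes counted here were changed, and no pattern was shared by the genes of a mouse. These counts check the procedure and are not error rates of the real comparison. With 5 mice a day, smaller differences can be missed.

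Named genes were the 15 largest rises and falls among called genes without overlap, and up to 4 called members of each of 39 lists, or the member with the smallest p. A gene that this rule names is not reported here. The comparison, its members and the lists were chosen with earlier results of these data known. Alternatives changed the filter, scaling, moderation, probe rule and single mice.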

Additional observations from a re-analysis of the deposited data

Results flagged for a closer look

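Among 237 sets of 4 or 5 mice of a day examined for the named genes, 20 held a mouse whose gap to its neighbour was a large share of the range. Chance gives about 1 in 20 such sets. Of the 20, 10 were at mouse 4 of day 5. This mouse was the lowest in Btnl10 (-1.97, next mouse -0.38), Kel (-1.57, next -0.34), Icam4 (-1.39, next -0.16), Mgst3 (-1.78, next -0.15) and Ppox (-1.35, next -0.41), all genes of red cell precursors. It was also the lowest in Fcmr (-4.75, next -1.42), Cad (-0.81, next -0.18) and Col5a2 (-0.68, next -0.19), and the highest in Abhd5 (0.89, next 0.37) and Aldoa (1.13, next 0.61).

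Mouse 5 of day 5 was the highest in C1qa (-0.13, next -0.76) and C1qb (-0.14, next -0.85). Mouse 3 of day 5 was the highest in F13a1 (0.90, next 0.63) and H2ax (0.51, next 0.21), and mouse 1 of day 5 was the lowest in Nkg7 (0.33, next 0.89). On day 2, mouse 1 was the lowest in Dgat2 (-0.24, next 0.15) and Rev3l (-0.74, next -0.31), mouse 3 was the lowest in Abhd5 (-1.13, next -0.93) and the highest in Pcdh8 (-0.49, next -0.89), and mouse 5 was the highest in H2ax (-0.19, next -0.74).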

How the results depend on the processing

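Over 23 alternatives, 0 named genes reversed direction, and 99 of the 122 called genes that the naming rule picked stayed called in every alternative in which they were tested. The other 23 lost their call in at least 1. The count of called genes was 808 (without mouse 1 of day 2) to 1115 (without mouse 2 of day 2) when 1 mouse was left out, and 971 (no moderation) to 1218 (all 40 arrays with the mouse as a random block) otherwise. The corresponding ranges were 396 to 562 and 481 to 602 for genes higher on day 5, 412 to 575 and 477 to 616 for genes lower, and 96 to 129 and 88 to 121 for changes of at least 2-fold. Of the called genes 47.2% (quantile normalization between arrays) to 50.9% were higher. Leaving out mouse 1 of day 2 cost 16 calls among named genes and mouse 3 of day 2 cost 12. Same-numbered mice of the 2 days correlated in their deviations at 0.328, 0.244, 0.109, -0.029 and 0.151 for numbers 1 to 5. For each number but 4 this was above every correlation of the same day 2 mouse with a day 5 mouse of another number (highest 0.0369, 0.14, 0.06 and 0.0607). This is a hint from the data and not from the design. Since 1 of the 5 pairs lay below 0.1, the number was not taken as a pairing. With the mouse number as a replicate block 1086 genes were called, 1026 of them shared with the fit without it, and Cfl1 (adjusted p = 0.0515), Psmb6 (0.0662) and Psmb7 (0.0564) lost their calls. With the 10 mice fitted alone, Abcb10, Bgn, Casp6, Ccl6, Fcmr, Icam4, Kdr, Mrps18c, Rev3l and Snrpb2 lost theirs (adjusted p = 0.0519 to 0.0956). Quantile normalization cost the calls of Abcb10, Cfl1, Eif1b, Psmb7 and Rev3l (0.061 to 0.384), and a common spread those of Abcb10, Cfl1, Kdr, Mrps18c and Rev3l (0.0561 to 0.288). Without moderation Abcb10, Actb, Bgn, Casp6, Ccl6, Cfl1, Eif1b, Fancg, Fcmr, H2-D1, Icam4, Kdr, Mrps18c and Psmb7 were not called (0.0506 to 0.0944). With 40 arrays Eif1b, Mrps18c, Psmb7 and Rev3l were not called (0.0617 to 0.0769), and with values on both arrays Fcmr, Mrps18c, Nop58 and Psmb7 were not (0.0558 to 0.105). Values in at least 2 mice cost Mrps18c (0.056) and Psmb6 (0.0531), a robust prior Fcmr (0.0546) and the best-measured probe Eif1b (0.113). The count in the list of B cells was 2 of 10 with only values measured on both arrays of a mouse, and that of DNA repair was 1 of 11 under either scaling alternative. Why a call was lost was not tested, apart from the fewer genes or mice that an alternative leaves. No source used here gives signal over background, so dim probes could not be examined.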

Other observations

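The 10 genes known from other tissues were Olfr159, Hcrt, Myf6, Lce1d, Klk1b5, Serpina1a, Prph, Mbl1, Oaz3 and Daw1. Their differences of day 5 minus day 2 ran from -1.19 (Serpina1a, adjusted p = 0.000422, limma) to -0.73 (Hcrt, adjusted p = 0.00276). They were chosen after their values had been seen, so that their fall is a description.

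Their mean followed the mouse-to-mouse deviations of many falling genes. The 10 genes were picked among those called lower and for varying alike, and 8 of them had a Pearson r above 0.8 with the mean of the other 9, so they are left out of the counts. Of 529 other genes and unnamed probes called lower that had enough values, 176 (33.3%) had an r above 0.8 with the mean, against 1 of 515 (0.19%) called higher and 77 of 3581 (2.15%) not called. Below -0.8 lay 41 (7.96%) of those called higher, 0 of those called lower and 94 (2.62%) of those not called. Without the 2 mice farthest from their day means (mouse 2 of day 2 and mouse 4 of day 5), 162 of 527 (30.7%) called lower, 2 of 512 (0.39%) called higher and 208 of 3484 (5.97%) not called were above 0.8, over 8 mice. Over these 8 mice 58 of 512 called higher, 6 of 537 called lower (the set included) and 189 of 3484 not called lay below -0.8. All genes share the same arrays, and the set was chosen within 1 of the groups compared, so these shares are descriptions. The part of this pattern in the falls was not tested.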
